A study of Homo sapiens with 4 samples.

Results

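Cell surface receptors that are marked with ubiquitin are taken into the cell and degraded along one route. Coated pits or caveolae internalize the receptor, the ESCRT complexes sort it into vesicles inside the endosome, Rab GTPases move and mature the endosome, retromer sends part of the cargo back, and the lysosome breaks down what is left. MIB1 is an E3 ubiquitin ligase known for marking Notch ligands for endocytosis, and the study examined it as a regulator of the BMP receptor BMPR2. The 55 genes described here were taken from a list of genes of this route: 12 for internalization, 21 for ESCRT sorting, 8 for Rab GTPases and retromer, and 14 for the lysosome. The list was set by function, with earlier results of these data known. Each of the 55 symbols matched 1 of the 58302 gene identifiers in the files, and all 55 passed the filter on low counts that left 16181 genes.

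The cells were NCI-H838, a line from a human non-small-cell lung cancer, in its MIB1-iKO form. All 4 libraries carry the same kind of construct, a guide RNA against MIB1 with Cas9 under a doxycycline (dox) switch. Single-cell clones were isolated from the engineered cells. The sample titles name neither the clone nor the guide, so the libraries may stand for 1 clone. RNA-seq compared 2 libraries grown without dox (no dox) with 2 grown with 0.5 μg/mL dox, all at day 3 and without added BMP ligand. No dox-treated cells without the guide were analysed here, so a response to dox itself cannot be told apart from the loss of MIB1. The labels number the replicates but do not tie them to separate cultures, and p-values then measure only the spread between these samples.

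The deposited counts summed to between 15943025 and 24398411 reads per library, lower in both dox libraries. The targeted gene, MIB1, was counted 598 and 588 times in the no dox libraries and 90 and 59 times in the dox libraries, a log2 fold change of -2.58 ± 0.23 (SE, adjusted p 0.000375 in limma). MIB1 was not called without a filter on counts, on the RPKM scale or with any 1 library left out, where its log2 fold change lay between -3.00 and -1.34. Epithelial genes were present in every library, in RPKM (reads scaled by gene length and sequencing depth). KRT8 stood at 22.1 and 23.0 RPKM without dox and at 17.9 and 17.0 RPKM with dox, KRT18 at 48.1 and 55.7 RPKM without dox and at 35.9 and 40.3 RPKM with dox, both lower with dox (adjusted p 0.362 and 0.339 in limma). EPCAM (9.70 to 10.9 RPKM) and CDH1 (3.01 to 4.07 RPKM) were higher in both dox libraries (adjusted p 0.829 and 0.705 in limma). The leukocyte gene PTPRC had 0 reads in each library, which allows up to 3 reads, the endothelial gene PECAM1 had 4 to 10 reads, and the fibroblast gene COL1A1 had 22 to 89 reads. The transcripts of the receptors BMPR2 (log2 fold change 0.04 ± 0.14) and ACVR1 (0.02 ± 0.17) had adjusted p-values of 0.954 and 0.981 (limma, SE).

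None of the 55 genes was called when dox was compared with no dox. A call required both a 2-fold change or more and an adjusted p no higher than 0.05 in limma on voom-weighted, quantile-normalized counts, a rule that 0.0371% of all genes tested met. Every one of the 55 had an adjusted p of at least 0.4, and edgeR and DESeq2 also called 0 of them. At an unadjusted p under 0.05 there were 4 of the 55 (7.27%), against 9.28% of all genes tested. Of these, 1 was higher with dox, VPS28, where 4.68% of all genes were higher at that level, and 3 were lower, CHMP6, VPS26A and ATP6V0D1, where 4.59% of all genes were lower. The share of the 55 was thus not above that of genes in general. The count of 4 became 2 in edgeR and in DESeq2, where 9.07% and 5.60% of all genes tested had such a p. The closing section gives the count in the other fits, including a fit in which it rose.

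The log2 fold changes of the 55 genes lay between -0.52, for CHMP6, and 0.26, for VPS28. Their median was 0.01, and the median over all genes tested was -0.0004. There were 28 genes above 0 and 27 below. By step, the median was 0.01 for internalization, -0.01 for ESCRT sorting, -0.07 for Rab GTPases and retromer, and 0.01 for the lysosome. The median size of a log2 fold change, without its sign, was 0.07 for the 55 genes, 0.10 for the 5629 genes whose mean count reached the lower quartile of the 55, and 0.16 for all genes tested.

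**Figure D1:**
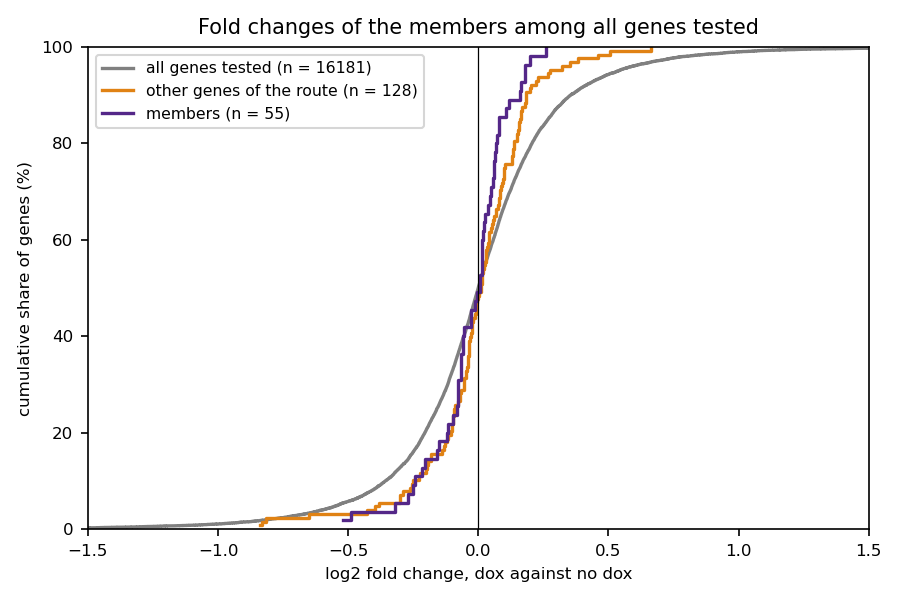
Cumulative share of genes, in percent, against the log2 fold change of dox against no dox, for the 55 genes, 128 other genes of the route and all 16181 genes tested, with x cut at -1.5 and 1.5. The curve of the 55 genes crosses 50% close to 0 and spans only -0.52 to 0.26.

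A p that misses the threshold does not show that a transcript stayed the same, so the sizes that the data allow are given too. The 95% interval of the log2 fold change lay inside a 2-fold change in either direction for 54 of the 55 genes, against 77.4% of all genes tested. It lay inside a 1.5-fold change for 47 of the 55, against 50.9% of all genes. Among the 5629 genes whose mean count reached the lower quartile of the 55, the shares were 99.9% and 93.5%. The 55 also include genes below that quartile, so the 2 sets are not alike in counts. CHMP4A was the gene whose interval reached past 2-fold. The other 7 genes whose intervals reached past 1.5-fold were VPS37B, CHMP4B, CHMP6, PTPN23, MCOLN1, TFEB and TFE3, named after their values were seen. These 7 and CHMP4A all had mean counts below that quartile, from 21.25 reads for CHMP4A to 308 for MCOLN1. Every gene of the 55 at or above the quartile thus had its interval inside 1.5-fold. Internalization and the Rab and retromer genes had all of their 12 and 8 intervals inside 1.5-fold.

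**Figure D2:**
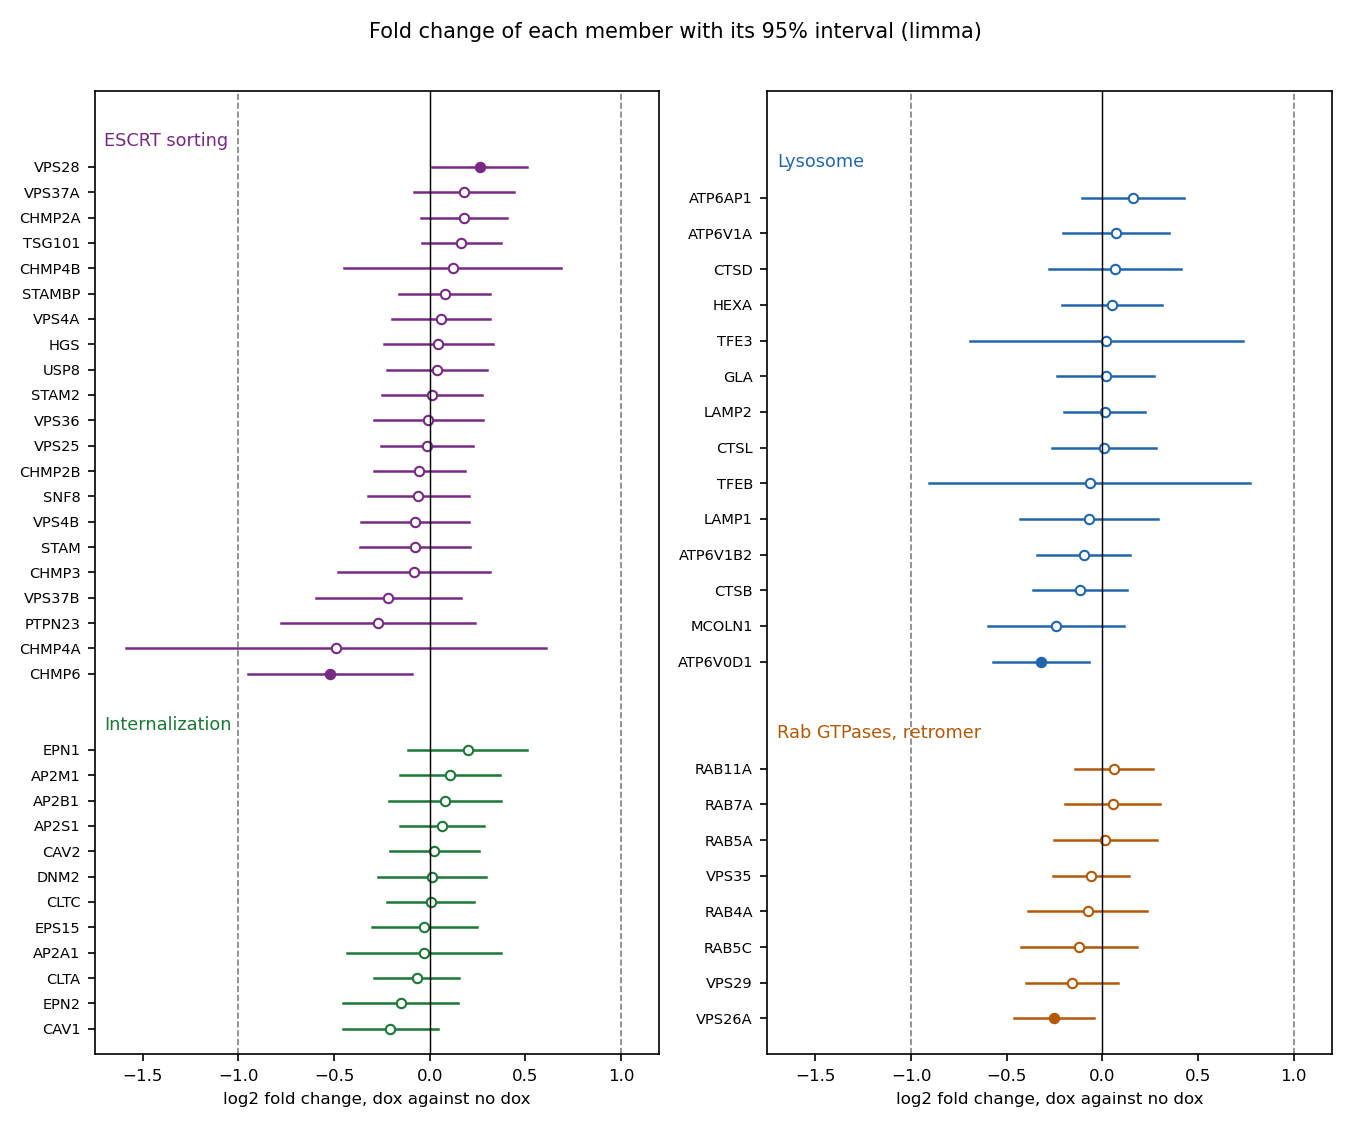
Log2 fold change (x) of each of the 55 genes with its 95% interval from limma, by step of the route, with 2 libraries per group. Filled points mark VPS28, CHMP6, VPS26A and ATP6V0D1, which had an unadjusted p under 0.05, and dashed lines mark a 2-fold change, which only the interval of CHMP4A crosses.

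For 42 of the 55 genes (76.4%) the difference between the group means was smaller than the larger of the gaps between replicates, as it was for 72.9% of all genes. Both dox libraries lay on the same side of both no dox libraries in 18 of the 55 genes (32.7%), 9 higher and 9 lower, where 38.6% of all genes tested had groups that did not overlap. The smallest p that an exact two-sided permutation of 2 libraries against 2 allows is 0.333. The dox replicates themselves stood apart: the median deviation of the 55 genes from their means over libraries was -0.07 in dox replicate 1 and 0.06 in dox replicate 2, on the log2 scale, and -0.03 and 0.03 in no dox replicates 1 and 2. Without dox replicate 2 the median log2 fold change of the 55 was -0.07.

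The 55 genes together held under 1% of each library. Their share of the counted reads was 0.812% and 0.838% in no dox replicates 1 and 2, and 0.796% and 0.848% in dox replicates 1 and 2. The dox values enclosed the no dox values. The internalization and lysosome shares overlapped between groups in the same way. The ESCRT genes took 0.165% and 0.168% without dox and 0.172% and 0.178% with dox, whereas the Rab and retromer genes took 0.270% and 0.266% without dox and 0.259% and 0.256% with dox. In these last 2 steps the groups did not overlap in their share of reads. In summed RPKM they did, with 741.5 and 716.2 without dox and 794.8 and 741.4 with dox for the ESCRT genes, and 889.2 and 810.5 without dox and 854.2 and 748.6 with dox for the Rab and retromer genes. The ESCRT share was 0.166% ± 0.00175 without dox and 0.175% ± 0.00422 with dox, and the Rab and retromer share was 0.268% ± 0.00297 without dox and 0.258% ± 0.00261 with dox (mean ± SD, n = 2).

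**Figure D3:**
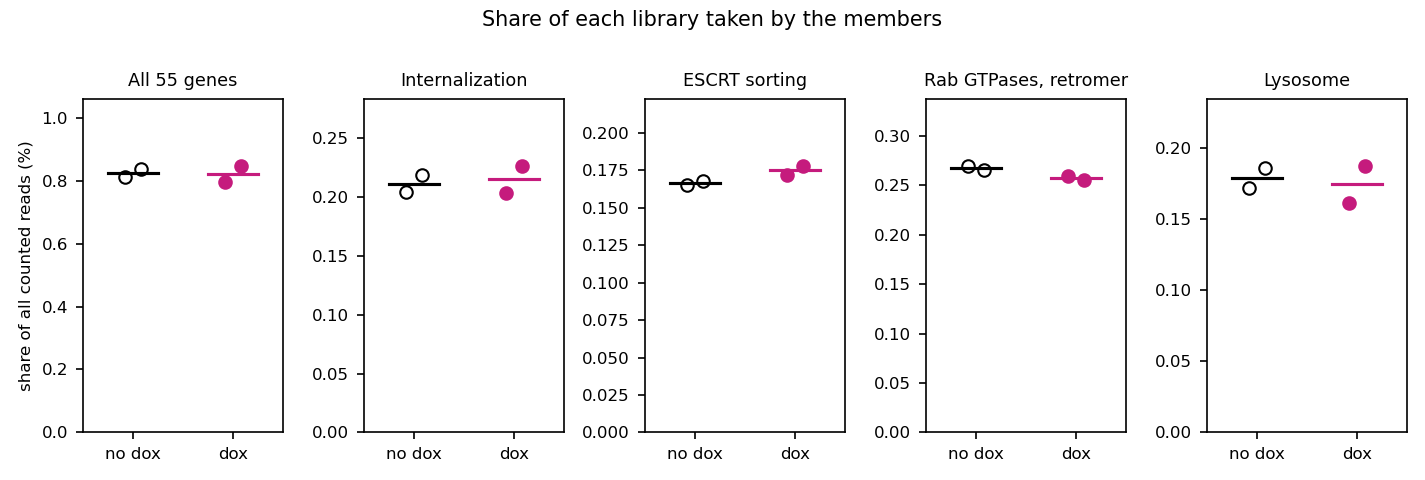
Share of all counted reads, in percent, taken by the 55 genes and by each step in the 4 libraries (points), with the group mean as a line and each y axis starting at 0. The groups overlap for all 55 genes, internalization and the lysosome, and sit close together without overlap for ESCRT sorting and for Rab GTPases and retromer.

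The levels of the 55 genes spanned from 0.477 RPKM for TFEB to 267.6 RPKM for AP2M1, as means over the 4 libraries. There were 12 genes above 100 RPKM and 3 under 1 RPKM. The median of the 55 was 19.1 RPKM, and that of all genes tested was 4.18 RPKM. The order hardly depended on the gene model used for the length: Spearman's rho between mean RPKM and reads per kilobase of the canonical transcript was 0.995 over the 55 genes, which share the same libraries. Mean RPKM was weakly and inversely related to the GC content of the gene, with rho of -0.30 over the 55 genes and -0.15 over the 12135 protein-coding genes tested, both given as descriptions.

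**Figure D4:**
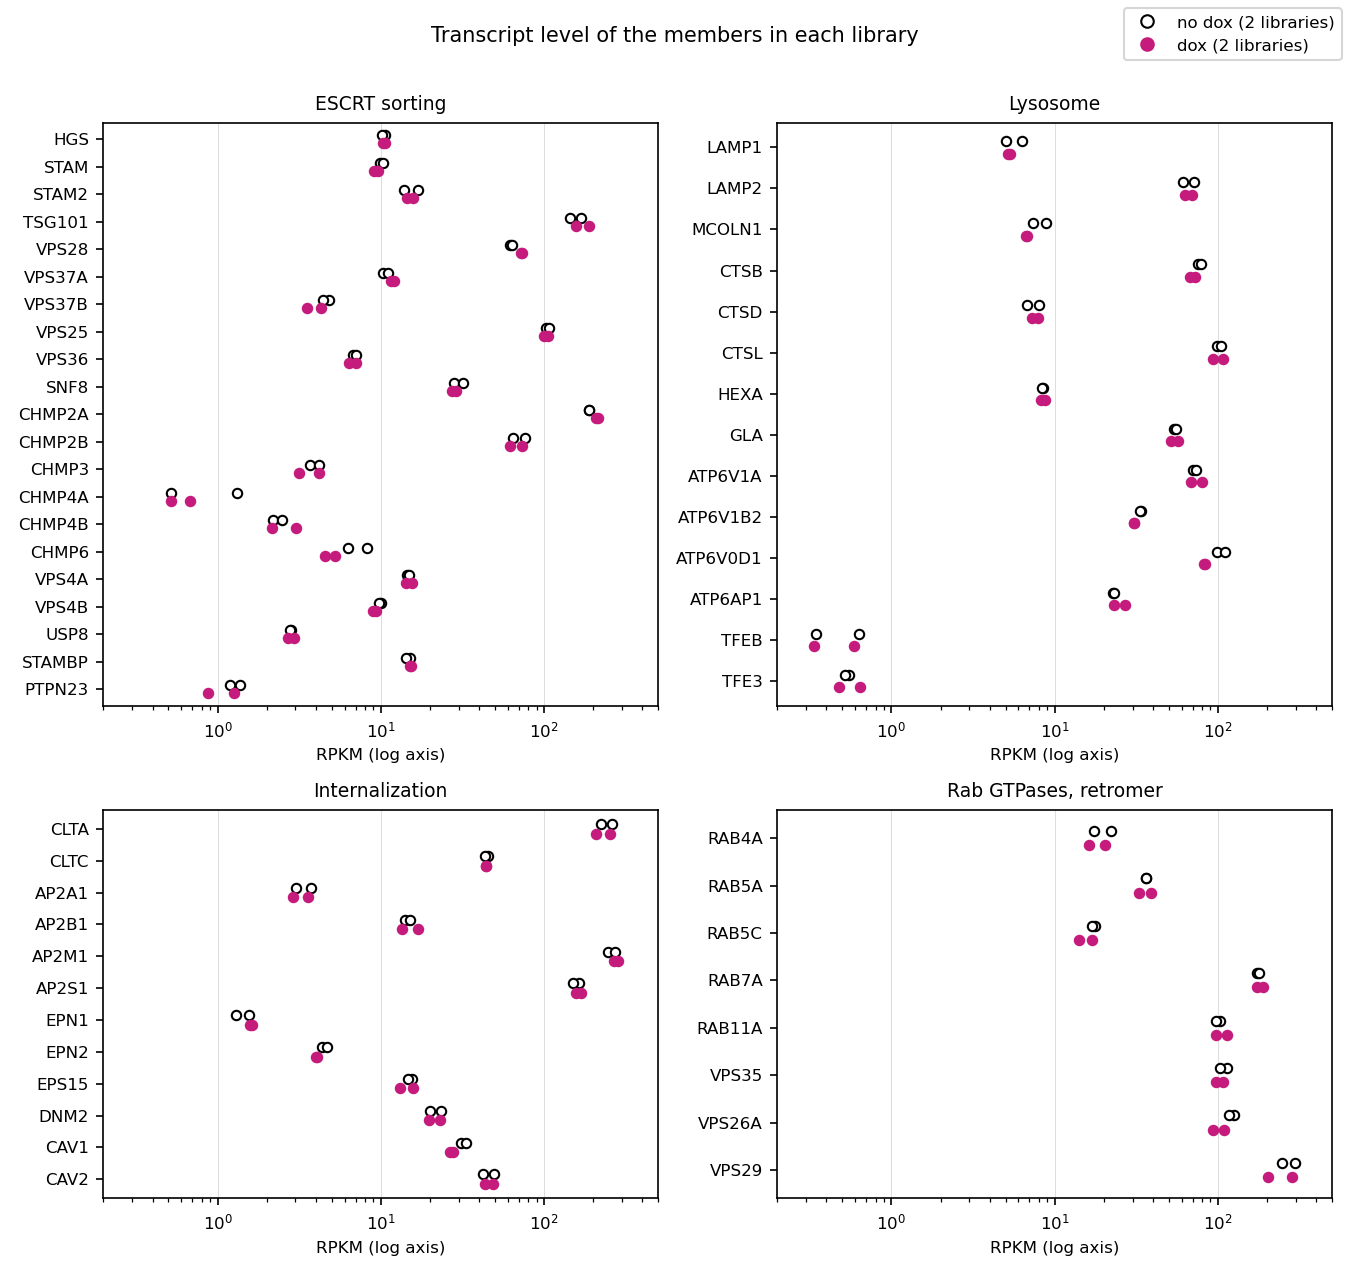
Level of each of the 55 genes in each library, in RPKM on a log axis, with open circles for the 2 no dox libraries and filled circles for the 2 dox libraries. The genes span from under 1 RPKM for TFEB to 267.6 RPKM for AP2M1, and the libraries of a gene lie farthest apart for CHMP4A, at 0.518 to 1.31 RPKM.

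Internalization starts with the clathrin coat. The light chain CLTA stood at 236.1 RPKM and the heavy chain CLTC at 44.3 RPKM, means over the 4 libraries. CLTA (log2 fold change -0.07 ± 0.10) and CLTC (0.01 ± 0.11) had adjusted p-values of 0.888 and 0.994 (limma, SE). In the AP2 adaptor, which links cargo to clathrin, the medium chain AP2M1 was the highest of the 55 genes. AP2M1 had 245.1 and 272.7 RPKM in no dox replicates 1 and 2, and 267.8 and 284.7 RPKM in dox replicates 1 and 2. The dox libraries lay within or just above the no dox range, so the groups overlapped, and its log2 fold change was 0.11 ± 0.12 (adjusted p 0.839 in limma). The small chain AP2S1 was at 160.0 RPKM, the beta chain AP2B1 at 14.9 RPKM and the alpha chain AP2A1 at 3.31 RPKM, so that the levels of transcripts for subunits of 1 complex differed widely.

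Epsins and EPS15 are accessory proteins that bind ubiquitin on cargo, and dynamin 2, from DNM2, cuts the vesicle from the membrane. EPN1, the gene of this step with the highest log2 fold change (0.20 ± 0.14, adjusted p 0.721 in limma), had 1.30 and 1.56 RPKM without dox and 1.62 and 1.59 RPKM with dox. Both dox libraries lay above both no dox libraries, but the group means differed by less than the no dox replicates did. EPN2 had a log2 fold change of -0.15 ± 0.14 (adjusted p 0.786 in limma), EPS15 one of -0.03 ± 0.13 and DNM2 one of 0.01 ± 0.13. EPN1 and EPN2, both epsins, thus stood on opposite sides of 0, neither past the test.

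Caveolins shape the caveolae, the other way in. CAV1 (ENSG00000105974, chromosome 7, 116524994 to 116561179) had the lowest log2 fold change of the internalization genes, -0.21 ± 0.12 (adjusted p 0.626 in limma). It stood at 30.9 and 33.3 RPKM without dox and at 26.7 and 27.7 RPKM with dox. Both dox libraries were below both no dox libraries. CAV2, its neighbour on chromosome 7, was at 49.7 and 42.3 RPKM without dox and at 48.6 and 43.6 RPKM with dox, with groups that overlapped (0.02 ± 0.11, adjusted p 0.968 in limma).

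ESCRT-0 is the complex that first gathers ubiquitinated cargo on the endosome. Its genes HGS, STAM and STAM2 stood at 10.4, 9.71 and 15.2 RPKM, and their log2 fold changes were 0.04 ± 0.13, -0.08 ± 0.14 and 0.01 ± 0.12 (SE), with adjusted p-values of 0.949, 0.903 and 0.987 in limma. None of the differences was larger than its standard error.

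ESCRT-I takes the cargo over from ESCRT-0. Of its 4 genes among the 55, 3 had positive log2 fold changes. In the normalized values of each, both dox libraries lay above both no dox libraries. Groups were apart in that direction for 3162 of the 16181 genes tested. Of 5 further ESCRT-I genes on the list of other genes, UBAP1 (0.16), MVB12A (0.20) and VPS37C (0.38) lay above 0 and VPS37D (-0.82) and MVB12B (-0.84), each with under 30 reads in every library, below it, none of them called. VPS28, the subunit that links ESCRT-I to ESCRT-II, had 61.8 and 63.2 RPKM without dox and 72.5 and 73.5 RPKM with dox. The replicates of each group lay close together and the groups were well apart. VPS28 (ENSG00000160948) had a log2 fold change of 0.26 ± 0.12 (SE, unadjusted p 0.0406 and adjusted p 0.517 in limma), and its interval reached from 1.01-fold to 1.43-fold. TSG101, the subunit that binds ubiquitin, had 167.4 and 144.0 RPKM without dox and 187.9 and 156.7 RPKM with dox. In RPKM its groups overlapped, since dox replicate 2 lay between the no dox replicates. In quantile-normalized log2 CPM (counts scaled to library size), on which the test was run, they did not, and the log2 fold change was 0.16 ± 0.10 (SE, adjusted p 0.643 in limma).

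VPS37A and VPS37B are alternative subunits of ESCRT-I. VPS37A had a log2 fold change of 0.18 ± 0.12 and VPS37B one of -0.22 ± 0.18 (SE), with adjusted p-values of 0.698 and 0.751 (limma). Together TSG101, VPS28, VPS37A and VPS37B took 0.0568% and 0.0548% of the reads without dox and 0.0631% and 0.0618% with dox. Both dox libraries had the larger share, and TSG101 alone gave most of these reads.

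The 3 ESCRT-II genes lay close to 0. VPS25 (-0.01 ± 0.11), VPS36 (-0.01 ± 0.13) and SNF8 (-0.06 ± 0.12) had adjusted p-values of 0.921 or more (limma), and their groups overlapped. Their levels were 104.1, 6.81 and 29.0 RPKM although the proteins form 1 complex.

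ESCRT-III forms the filaments that pinch vesicles into the endosome, and CHMP6 starts its assembly on ESCRT-II. CHMP6 (ENSG00000176108, chromosome 17, 80991598 to 81009517) had the lowest log2 fold change of the 55 genes, -0.52 ± 0.20 (SE, unadjusted p 0.0206 and adjusted p 0.439 in limma). Its RPKM was 6.27 and 8.24 without dox and 5.24 and 4.57 with dox. Both dox libraries were below both no dox libraries, but the no dox replicates were nearly as far apart as the group means. These values rest on 245, 300, 133 and 138 reads, and 455 of its exon bases are shared with an antisense gene. The interval allowed a change between 0.518-fold and 0.938-fold.

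CHMP2A, an ESCRT-III subunit that VPS4 acts on, had 188.7 RPKM in both no dox libraries and 215.0 and 209.6 RPKM with dox. The dox libraries lay above, and the log2 fold change was 0.18 ± 0.10 (SE, adjusted p 0.643 in limma). Its paralog CHMP2B stood at -0.05 ± 0.11, a difference smaller than its standard error. CHMP4B and CHMP4A encode the main filament subunit and stood low, at 2.47 and 0.756 RPKM. CHMP4A had 17, 40, 11 and 17 reads in the 4 libraries, and 2265 of its exon bases overlap other genes on the same strand, so its value (-0.49 ± 0.51) is uncertain. CHMP3, which overlaps a read-through transcript, was at -0.08 ± 0.19.

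VPS4A and VPS4B, the ATPases that take the filaments apart, had log2 fold changes of 0.06 ± 0.12 and -0.08 ± 0.13 (SE, adjusted p 0.920 and 0.903 in limma). The deubiquitinases USP8 and STAMBP, which remove ubiquitin from cargo, stood at 0.04 ± 0.12 and 0.08 ± 0.11. PTPN23, which encodes the ESCRT adaptor HD-PTP, had 1.19 and 1.38 RPKM without dox and 0.876 and 1.26 RPKM with dox. Its groups overlapped and its log2 fold change was -0.27 ± 0.24 (adjusted p 0.776 in limma).

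**Figure D5:**
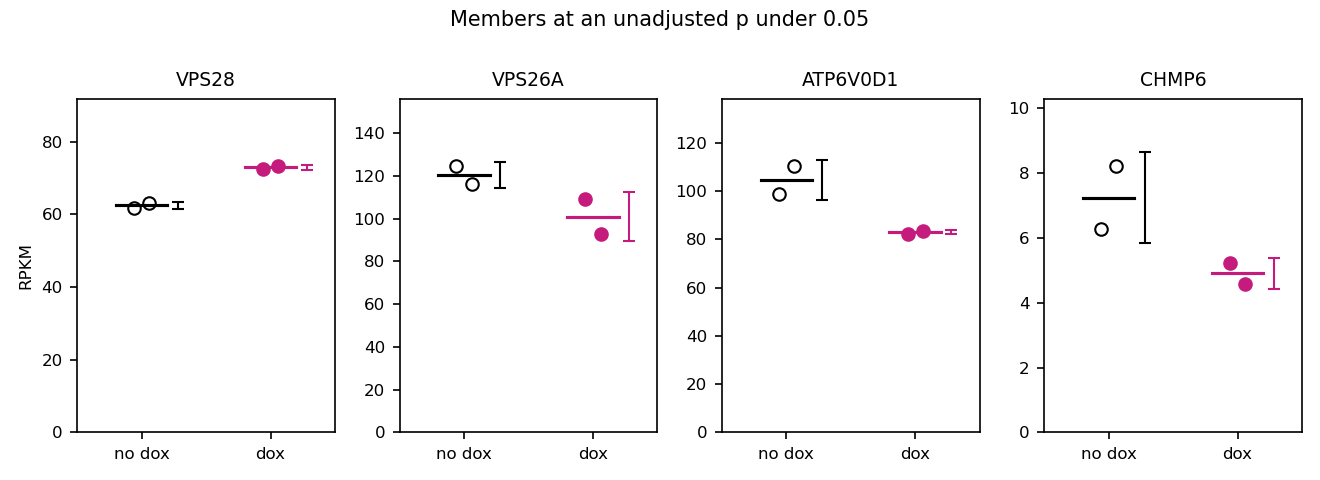
RPKM of VPS28, VPS26A, ATP6V0D1 and CHMP6 in each library, with the group mean as a line, the SD as a bar beside it (n = 2) and each y axis starting at 0. The dox libraries of VPS28 lie at 72.5 and 73.5, above the no dox libraries at 61.8 and 63.2, and those of the other 3 genes lie below.

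Rab GTPases give endosomes their identity, with RAB5 on early endosomes, RAB7 on late ones, and RAB4 and RAB11 on recycling ones. RAB7A was the highest of the 5, at 178.4 RPKM, and RAB11A stood at 102.5 RPKM. RAB11A had the highest log2 fold change of this step, 0.06 ± 0.10 (SE, adjusted p 0.896 in limma), with 102.8 and 96.9 RPKM without dox and 113.2 and 97.3 RPKM with dox. In RPKM the groups overlapped. RAB7A (0.06 ± 0.12), RAB5A (0.02 ± 0.12), RAB4A (-0.08 ± 0.15) and RAB5C (-0.12 ± 0.14) had adjusted p-values of 0.844 or more (limma, SE).

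Retromer is made of VPS35, VPS26 and VPS29 and carries cargo from endosomes back to the Golgi or the plasma membrane. The genes VPS35, VPS26A and VPS29 had negative log2 fold changes, whereas VPS26B, the second VPS26 gene, listed among the other genes of the route, stood at 0.14 ± 0.15 (SE, adjusted p 0.829 in limma). VPS26A (ENSG00000122958, chromosome 10, 69123512 to 69174412) had 124.8 and 116.2 RPKM without dox and 109.1 and 92.8 RPKM with dox. Both dox libraries were below both no dox libraries, and the log2 fold change was -0.25 ± 0.10 (SE, unadjusted p 0.0216 and adjusted p 0.444 in limma), with an interval from 0.726-fold to 0.971-fold.

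VPS29, the second highest of the 55 genes, had 298.0 and 245.8 RPKM without dox and 283.6 and 202.1 RPKM with dox. Its replicates differed more than its groups (-0.16 ± 0.11, adjusted p 0.707 in limma). VPS35 stood at -0.06 ± 0.09 (adjusted p 0.894 in limma). VPS35, VPS26A and VPS29 together took 0.165% and 0.157% of the no dox reads and 0.152% and 0.141% of the dox reads. The read share was smaller in both dox libraries, but in summed RPKM, which carries the authors' further scaling, the groups overlapped, with 536.3 and 465.3 without dox and 499.6 and 391.6 with dox.

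Among lysosomal membrane proteins, LAMP2 stood at 66.2 RPKM and LAMP1 at 5.47 RPKM. LAMP1 had a log2 fold change of -0.07 ± 0.17 and LAMP2 one of 0.01 ± 0.10, with adjusted p-values of 0.936 and 0.985 (limma, SE). MCOLN1, which encodes a calcium channel of the lysosome, had 7.36 and 8.91 RPKM without dox and 6.77 and 6.65 RPKM with dox. Both dox libraries were lower, but the group means differed by less than the no dox replicates did (-0.24 ± 0.17, adjusted p 0.703 in limma).

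Of the hydrolases, which digest the cargo, the protease genes CTSL and CTSB were highest, at 101.0 and 73.4 RPKM, and CTSD stood at 7.49 RPKM. GLA and HEXA, which encode glycosidases, were at 54.6 and 8.44 RPKM. The 5 log2 fold changes lay between -0.12 for CTSB and 0.07 for CTSD, and the smallest adjusted p among them was 0.805 (limma), for CTSB.

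The V-ATPase acidifies endosomes and lysosomes. ATP6V0D1 (ENSG00000159720, chromosome 16, 67438014 to 67481181), a subunit of its membrane part, had the smallest p of the 55 genes. It stood at 98.7 and 110.6 RPKM without dox and at 82.4 and 83.6 RPKM with dox. The dox libraries lay together below both no dox libraries, and the log2 fold change was -0.32 ± 0.12 (SE, unadjusted p 0.0161 and adjusted p 0.408 in limma), with an interval from 0.673-fold to 0.953-fold.

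The other V-ATPase genes of the 55 lay on both sides of 0. The accessory subunit gene ATP6AP1 had 22.6 and 23.2 RPKM without dox and 23.1 and 26.8 RPKM with dox, the highest log2 fold change of the lysosome step at 0.16 ± 0.13 (adjusted p 0.742 in limma). Its groups overlapped. ATP6V1A (0.07 ± 0.13) and ATP6V1B2 (-0.10 ± 0.11), subunits of the cytosolic part, had adjusted p-values of 0.907 and 0.843 (limma, SE). ATP6V1B2 was lower in both dox libraries, with 33.9 and 33.1 RPKM without dox and 30.5 and 30.7 RPKM with dox.

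TFEB and TFE3 encode factors that switch on lysosomal genes and are regulated largely by their location in the cell, which RNA-seq does not measure. Both transcripts were scarce. TFEB had 0.343 and 0.634 RPKM without dox and 0.338 and 0.593 RPKM with dox, from 23 to 62 reads. TFE3 had 0.548 and 0.522 RPKM without dox and 0.480 and 0.646 RPKM with dox, from 25 to 44 reads. Neither pair of groups separated, and the log2 fold changes were -0.07 ± 0.39 for TFEB and 0.02 ± 0.33 for TFE3 (SE, adjusted p 0.977 and 0.992 in limma). At this depth the intervals allowed TFEB anything between 0.533-fold and 1.71-fold.

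These factors bind the CLEAR element, whose core is the palindrome TCACGTGA, and the promoters of the 55 genes were searched for it. RefSeq windows from 250 bases before to 50 bases after the start were found for 44 of the 55 genes. The core lay in 5 of the 44 (11.4%), and in 1.18% of the 27305 genes of the table. The shorter form TCACGTG, on either strand, lay in 7 (15.9%, against 4.49%), and the E-box CACGTG, which both others contain, in 9 (20.5%, against 8.77%). Such windows were also found for 107 other genes of the route. In these, the core lay in 10 (9.35%), the shorter form in 21 (19.6%) and the E-box in 22 (20.6%). The shares were thus not particular to the 55 genes. Among the 44, the core lay in 3 of 9 lysosome genes, 1 of 16 ESCRT genes, 1 of 7 Rab and retromer genes and 0 of 12 internalization genes. The lysosome genes ATP6V1A, ATP6V1B2, CTSB, HEXA and LAMP2 had no window. In the other genes of the route, the core lay in 4 of 42 lysosome genes and 2 of 13 ESCRT genes. It also lay in 3 of 37 Rab and retromer genes and 1 of 15 internalization genes there.

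The promoters of the 3 lysosome genes and of RAB5A with the core are shown 5′ to 3′ on the strand of the gene. None of these genes was called, and the promoter of CHMP4A, which also has the core, is not shown. They are credited to RefSeq on GRCh38.p14, and capitals mark TCACGTGA and its shorter form TCACGTG. ATP6V0D1 is at chr16:67481186-67481241 on the minus strand, MCOLN1 at chr19:7522558-7522623, LAMP1 at chr13:113297022-113297244 and RAB5A at chr3:19946951-19947006, all on the plus strand.
ATP6V0D1: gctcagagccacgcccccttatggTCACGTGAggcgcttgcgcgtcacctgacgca
MCOLN1: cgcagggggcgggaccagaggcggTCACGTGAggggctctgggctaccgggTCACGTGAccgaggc
LAMP1: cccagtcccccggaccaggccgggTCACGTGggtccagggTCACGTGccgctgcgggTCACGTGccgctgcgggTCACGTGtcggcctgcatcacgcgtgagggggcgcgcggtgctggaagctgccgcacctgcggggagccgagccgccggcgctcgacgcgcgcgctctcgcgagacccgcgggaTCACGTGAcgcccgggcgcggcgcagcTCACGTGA
RAB5A: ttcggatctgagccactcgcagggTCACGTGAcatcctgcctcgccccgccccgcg

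LAMP1 held 6 of these sites, of which 2 were the full core, and MCOLN1 held 2 full ones. The 5 genes with the core, ATP6V0D1, MCOLN1, LAMP1, RAB5A and CHMP4A, had log2 fold changes of -0.32, -0.24, -0.07, 0.02 and -0.49, with a median of -0.24. Of 10 other genes of the route with the core, 7 were above 0, with a median of 0.08. A match describes the letters of a promoter and not a bound site.

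Another 134 genes of the same route were listed, and 128 of them were tested. None was called, and 7 had an unadjusted p under 0.05 (5.47%), 4 higher and 3 lower with dox. Their median log2 fold change was 0.01. The smallest p among those higher belonged to MITF, a relative of TFEB, with 2.00 and 2.34 RPKM without dox and 3.16 and 3.60 RPKM with dox. Both dox libraries lay above, and the log2 fold change was 0.66 ± 0.16 (SE, adjusted p 0.209 in limma). The protease gene CTSF had 32.8 and 34.8 RPKM without dox and 45.1 and 45.3 RPKM with dox (0.46 ± 0.12, adjusted p 0.227 in limma). The ESCRT-III gene CHMP1B had 166.5 and 147.9 RPKM without dox and 210.6 and 187.4 RPKM with dox (0.35 ± 0.09, adjusted p 0.246 in limma). In all 3 of these genes the groups were apart.

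In the other direction, EPS15L1, a relative of EPS15, was counted 188 and 173 times without dox and 78 and 90 times with dox (-0.65 ± 0.21, adjusted p 0.355 in limma). RAB7B was counted 78 and 70 times without dox and 31 times in each dox library (-0.83 ± 0.30, adjusted p 0.405 in limma). CAVIN3, which coats caveolae with CAV1, had 64.9 and 63.3 RPKM without dox and 54.5 and 47.4 RPKM with dox (-0.30 ± 0.12, adjusted p 0.452 in limma). These 3 were likewise picked by their small p, and both dox libraries were below both no dox libraries in each. None of the 3 passed the adjusted threshold.

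The genes not called here were read from transcripts only, and the amount, location and activity of their proteins were not measured in these libraries. Of the 55 genes, 29 share exon bases with another annotated gene, 26 with one on the opposite strand and 13 with one on the same strand, and whether counting used strand is not stated.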

How the data were processed

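RNA was measured in 4 MIB1-iKO NCI-H838 libraries, 2 no dox and 2 dox, grouped by their labels. Per the study's methods, the authors removed ribosomal RNA reads, aligned the rest to GRCh38 with GSNAP (also named in the submitters' processing notes) and counted reads over exons with HTSeqGenie. The deposited counts are raw whole numbers per gene. The deposited RPKM values were scaled by the authors for gene length, depth and a further factor per sample. Apart from gene length, counts were divided by 1 number per library, which holds depth and the further factor together. Relative to no dox replicate 1, it was 0.932 in no dox replicate 2 and 0.649 and 0.771 in dox replicates 1 and 2. The totals of these libraries stood at 0.869, 0.653 and 0.699 of the first. RPKM served for levels, for values shown by library and for the alternative fits on log2(RPKM), and the reported test was run on counts. A RefSeq annotation is named in the methods, but the identifiers are from Ensembl. Both a stranded and a low-input library kit are described, and which of them served for these samples is not given in the sources used here.

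Genes were kept by filterByExpr (16181 genes), counts were divided by library totals and quantile-normalized, and dox was compared with no dox by voom, lmFit and eBayes in limma 3.58.1 (R 4.3.3), without covariates, with Benjamini-Hochberg adjustment over all genes tested. No list of the 55 genes was tested as a set. Errors after ± are limma's standard errors of log2 fold changes unless SD is named. Intervals are limma's 95% intervals. The limit of 3 reads covers counting error only, since reads without molecular identifiers are not independent molecules. Symbols and 1-based positions on GRCh38 were taken from GENCODE release 44 (57532 of 58302 identifiers had a symbol).

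The 55 genes and the other lists were chosen with earlier results of these data known. Values in every library were given for genes at an unadjusted p under 0.05, the highest and lowest log2 fold change of each of 4 steps, the highest and lowest level, TSG101, VPS28, TFEB and TFE3, and the 3 smallest p in each direction among the other genes. A few further genes were given library values, chosen after their values were seen. Alternatives were edgeR 4.0.16 (quasi-likelihood, TMM), DESeq2 1.42.0, voom with TMM or library size only, other count filters, limma on log2(RPKM) with 0.1 or 1 added, a block for the replicate number, thinning to the smallest total, removal of GC and length trends, other thresholds, and leaving out each library. The voom, edgeR and DESeq2 fits were also run on counts simulated with the same fixed dispersion for every gene. The outcome is not used as support here.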

Additional observations from a re-analysis of the deposited data

How the results depend on the processing

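The count of 0 called among the 55 genes, and among the other genes of the route, held under edgeR, DESeq2, voom with library size only or with TMM, the filter at a mean count of 50, thinning, removal of GC and length trends, a limit of 0.1 on the adjusted p, and a limit of 0.05 with no fold threshold. With no filter beyond 1 read, with either RPKM fit and with any 1 library left out, 0 genes were called of all those tested, so the 0 there says nothing about the 55. The lowest adjusted p of the 55 over the alternatives other than the replicate block was 0.254 (limma, GC and length trends removed), for ATP6V0D1. The exception was a combination chosen after the data were seen. With the replicate number as a block in limma and an adjusted p of at most 0.05 with no fold threshold, 6 of the 55 genes passed: TSG101, VPS28 and CHMP2A higher and CHMP6, VPS26A and ATP6V0D1 lower. So did 7 of the other genes. In that fit 7.13% of all genes tested (1154) passed, and with the 2-fold threshold 0 of the 55 did. With 2 numbers in each group, the deviations of same-numbered samples from their group means correlated at 0.134 across genes, and the samples are known to share only a number.

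Counts among the 55 at an unadjusted p under 0.05 are given with the share of all genes at that level. The reported fit had 4 (9.28%), the replicate block 12 (20.2%) and library size only 3 (7.72%). The count was 2 with edgeR (9.07%), DESeq2 (5.60%), voom and TMM (9.05%), log2(RPKM + 0.1) (8.91%) and log2(RPKM + 1) (8.89%). In those last 5 they were CHMP6 and ATP6V0D1. With 1 library left out, the lone sample is assumed to vary like the others, so only log2 fold changes are read from those fits. The cause of these differences was not tested.

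With a library left out, the median log2 fold change of the 55 lay between -0.074 and 0.057, of internalization between -0.11 and 0.12, of ESCRT sorting between -0.030 and 0.028, of Rab GTPases and retromer between -0.112 and 0.0021, and of the lysosome between -0.129 and 0.059. The ESCRT median was -0.0378 with log2(RPKM + 0.1) and -0.0374 with log2(RPKM + 1). At least 1 left-out library turned the sign of 30 of the 55 genes (the share over all genes is not given). They include AP2M1 (-0.063 to 0.28), TFE3 (-0.22 to 0.25) and TFEB (-0.54 to 0.36), and likewise BMPR2 (-0.10 to 0.18) and ACVR1 (-0.15 to 0.19). TFE3 was -0.18 after thinning, and ACVR1 was -0.0079 with log2(RPKM + 0.1) and -0.0054 with log2(RPKM + 1). The log2 fold changes of VPS28 (0.23 to 0.29), CHMP6 (-0.71 to -0.34), VPS26A (-0.27 to -0.23) and ATP6V0D1 (-0.45 to -0.20) kept their sign. These genes were picked by their small p. In each, both dox libraries lay on the same side of both no dox libraries, so leaving out a library could hardly turn the sign. MIB1 was not called with no filter beyond 1 read (-2.58, limma adjusted p = 0.613), with log2(RPKM + 0.1) (-2.33, adjusted p = 0.108) or with log2(RPKM + 1) (-1.34, adjusted p = 0.0962), nor with a library left out (-3.00 to -2.16).

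Depth limits CHMP4A, TFEB and TFE3 most, whose counts were 11 to 62 reads per library.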
